A study of Mus musculus with 18 samples.

Results

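The genes described here are 10 direct targets of the transcription factor p53, namely Mdm2, Ccng1, Trp53inp1, Zmat3, Cdkn1a, Btg2, Plk2, Sesn2, Phlda3 and Eda2r. They were taken by gene symbol from the 34244 named genes of an RNA-seq table of whole mouse embryos at E11.5, and all 10 were found and passed the filter on low values. The members were selected on being p53 targets and with their FPKM values in these embryos already known, so their values are given as a description. No p-value of a member is printed, and where a member is said to be called, this describes the size of its difference next to the spread and is no test of it.

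The study asked whether the mouse embryo needs the catalytic activity of the DNA methyltransferase Dnmt3b. RNA was examined from 3 Dnmt3b+/+ embryos, 3 Dnmt3b-/- embryos homozygous for a conventional null allele and 3 Dnmt3b CI/CI embryos homozygous for a CRISPR/Cas9 knock-in that changes residues of the catalytic site, all in strain FVB, with 1 library per embryo. Only live embryos were taken, from matings of heterozygous parents, and founders of more than one line were used for the knock-in. Totals behind the normalization ranged from 38451729 to 49808777 reads per library.

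In a resting cell p53 is kept low by the ubiquitin ligase Mdm2, which is itself a p53 target and so closes a negative feedback loop. When DNA damage, nucleolar stress or other insults stabilize p53, it binds pairs of a short repeat in promoters and first introns and switches on genes that halt the cell cycle, restrain growth signals, guard against oxidants or promote death. In the mouse embryo the balance between p53 and its inhibitors is tight, and loss of Mdm2 is lethal early in development unless p53 is also lost.

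The letters that p53 recognizes are shown first, since the choice of members rests on their being p53 targets. The genome within 5 kb of either side of the annotated 5′ end (GENCODE vM21, GRCm38) was searched for the p53 consensus of 20 bases, a pair of 10-base repeats without a spacer, with CNNG required at the core of each repeat and at most 2 mismatches elsewhere. The consensus reads the same on both strands, so 1 scan covered both. Matches lay around 5 of the 10 members, with Cdkn1a, Ccng1 and Zmat3 at no more than 1 mismatch and Zmat3 at 0. Among the same windows of 15474 tested protein-coding genes, 10.7% held a match with up to 2 mismatches, 1.86% with up to 1 and 0.239% with 0. Sites are written below from 5′ to 3′ along the gene, with the core CNNG of each repeat in capitals, and positions count from the annotated 5′ end of the gene.
Cdkn1a (chr17:29090928-29090947, + strand, position -38, upstream): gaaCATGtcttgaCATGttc
Ccng1 (chr11:40755462-40755481, - strand, position -160, upstream): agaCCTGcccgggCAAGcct
Ccng1 (chr11:40754936-40754955, - strand, position 366, intron): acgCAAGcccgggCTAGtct
Zmat3 (chr3:32364331-32364350, - strand, position 1674, exon outside the coding sequence): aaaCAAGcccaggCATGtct
Zmat3 (chr3:32370151-32370170, - strand, position -4146, upstream): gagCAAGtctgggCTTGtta
Eda2r (chrX:97376534-97376553, - strand, position 672, intron): gggCAAGtccgggCCTGtgt
Plk2 (chr13:110394394-110394413, + strand, position -642, upstream): gatCTTGcttagaCTTGttg
Plk2 (chr13:110392882-110392901, + strand, position -2154, upstream): caaCATGcccgggCTTGcat
The Cdkn1a gene has a second annotated start further downstream, and from the most downstream start in RefSeq the same site lies at position -2832. No match in this window says only that these letters were not found there, and a match is not a measured binding site.

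RefSeq promoters, 250 bases before to 50 bases after a start site (GRCm38.p6), were on hand for 8 members. Of all 32851 such promoters, 0.326% held the consensus under the same rule, and Cdkn1a and Ccng1 were the members that did. Their windows are printed with the 20-base site in capitals.
Cdkn1a upstream start (chr17:29090729-29091028, + strand): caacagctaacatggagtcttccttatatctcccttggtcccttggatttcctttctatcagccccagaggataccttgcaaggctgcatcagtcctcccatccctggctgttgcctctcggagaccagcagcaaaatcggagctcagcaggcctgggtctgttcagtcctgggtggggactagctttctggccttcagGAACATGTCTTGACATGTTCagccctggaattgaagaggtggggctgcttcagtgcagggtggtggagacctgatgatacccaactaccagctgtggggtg
Ccng1 (chr11:40755237-40755536, - strand): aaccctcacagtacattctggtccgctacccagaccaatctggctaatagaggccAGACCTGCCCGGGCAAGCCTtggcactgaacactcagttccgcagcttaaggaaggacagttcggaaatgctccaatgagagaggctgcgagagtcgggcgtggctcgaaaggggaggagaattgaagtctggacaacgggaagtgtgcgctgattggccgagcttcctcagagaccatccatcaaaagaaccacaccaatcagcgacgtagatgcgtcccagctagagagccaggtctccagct
In CpG content the 2 windows differed, with 2 CpG dinucleotides in the Cdkn1a window and 14 in that of Ccng1, against a median of 7 over all promoters. At the other start of Cdkn1a the window held 23 CpG dinucleotides, and the windows of Mdm2, Phlda3, Sesn2, Btg2 and Plk2 held 23 to 35, while that of Eda2r held 5. Whether any of these CpGs was methylated in the embryos was not analysed here.

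Before the members, the targeted gene was examined. Dnmt3b stood at 2.25, 1.62 and 2.04 FPKM in Dnmt3b+/+ embryos, at 2.45, 3.12 and 3.33 FPKM in those labelled Dnmt3b-/- and at 2.06, 1.98 and 2.32 FPKM in Dnmt3b CI/CI. FPKM is the number of fragments scaled to the length of the gene and the depth of the library. The value sums all exons and does not separate those that the null allele lacks, so it does not check the genotype, and it was 0.57 ± 0.15 higher on the log2 scale (SE, limma, adjusted p = 0.0248) in the embryos labelled Dnmt3b-/-. The label is therefore used to name these embryos. Folds below are log2 differences of FPKM + 0.1 from one limma fit over all 9 embryos, given ± SE with n = 3 per genotype, and a gene was called at a Benjamini-Hochberg adjusted p under 0.05 with a fold of at least 2.

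One library stood apart from its group. Dnmt3b+/+ replicate 2 held 12 reads of Alb and 20 of Afp, the main secreted proteins of fetal liver, where the other Dnmt3b+/+ embryos held 8960 and 4016 reads of Alb and 14022 and 6869 of Afp. Apoa1, with 2 reads, and Serpina1b, with 1, were also lowest in this embryo. Without it the same 5 members were called against Dnmt3b+/+ as with it, the members' median log2 fold change was 0.99, and single members ran from 0.21 to 2.74, while 785 of all genes were called in place of 863. In Dnmt3b CI/CI against Dnmt3b+/+ 0 members were called without it.

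The members were compared first between embryos labelled Dnmt3b-/- and Dnmt3b+/+ embryos, where the size of the difference varied widely among them. All 10 members had a positive log2 fold change, from 0.20 for Plk2 to 2.76 for Eda2r, with a median of 0.97 against -0.07 over all 19397 genes tested. Eda2r, Ccng1, Sesn2, Phlda3 and Cdkn1a were called higher and none was called lower, where 1.07% of all tested genes were called higher and 3.38% lower. In 9 of the 10 members every embryo labelled Dnmt3b-/- lay above every Dnmt3b+/+ embryo, an ordering seen in 15.1% of all tested genes. Dropping the fold threshold from the rule added Mdm2, Trp53inp1 and Zmat3, with 9.41% of all genes then called higher. Since the members were chosen for these values, nothing is read from the counts against the background. In these whole-embryo libraries, more RNA per cell and more cells that express a gene cannot be told apart.

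**Figure D1:**
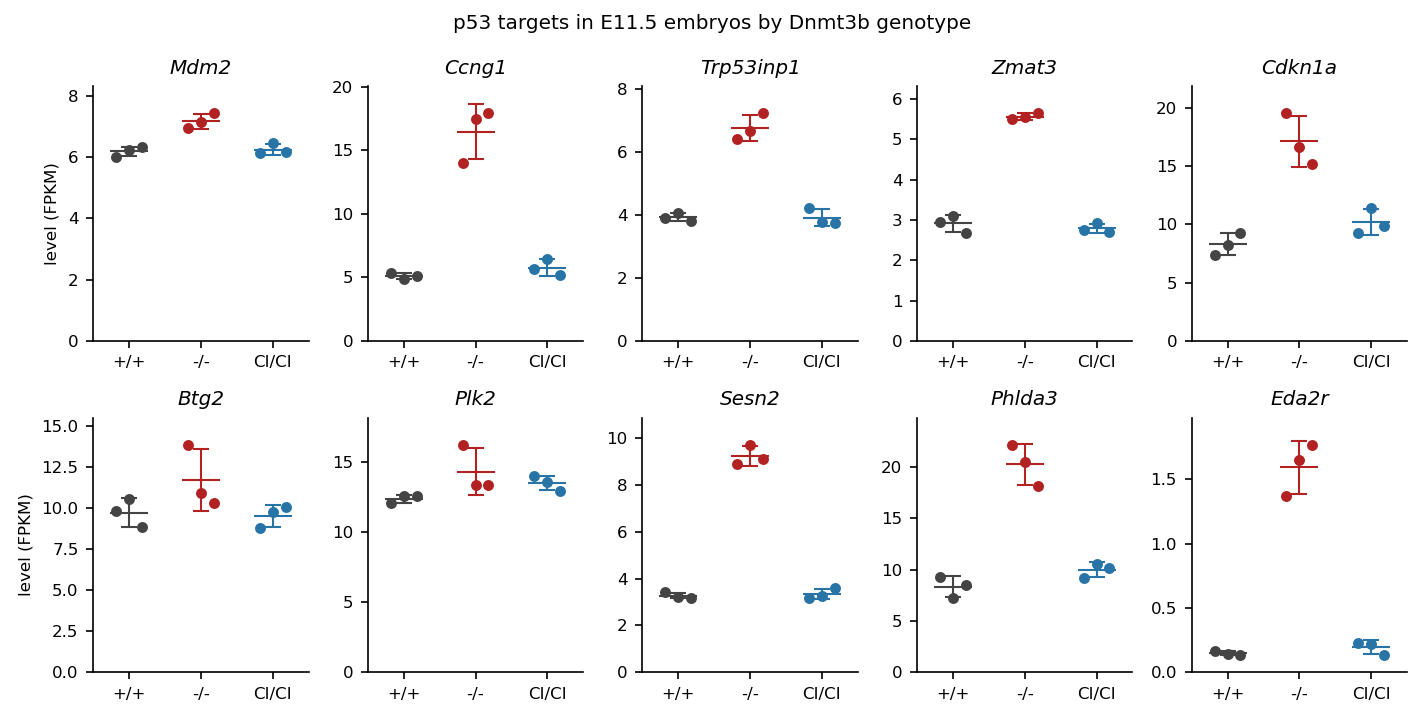
Level of each member in FPKM (vertical axis, from 0) in the 3 embryos of each Dnmt3b genotype (points), with the mean and SD (bars). The embryos labelled Dnmt3b-/- stand apart from the other 6 for Ccng1, Trp53inp1, Zmat3, Cdkn1a, Sesn2, Phlda3 and Eda2r, and lie close to them for Mdm2, Btg2 and Plk2.

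Genes of the feedback loop around p53 came first. Mdm2 (chr10:117688875-117710758, - strand), the ligase that marks p53 for degradation, was measured at 6.01, 6.22 and 6.32 FPKM in Dnmt3b+/+ embryos, 6.94, 7.14 and 7.43 FPKM in those labelled Dnmt3b-/- and 6.13, 6.45 and 6.15 FPKM in Dnmt3b CI/CI. The Dnmt3b-/- values lay above all others, by a narrow margin. Its log2 fold change against Dnmt3b+/+ was 0.21 ± 0.05, a ratio of means of 1.16, and it was not called. From 1202 to 1574 reads per library lay behind these values. Mdm2 has more than one promoter, of which p53 acts on the internal one, and a value per gene does not separate their transcripts.

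Ccng1 (chr11:40748552-40755311, - strand) encodes cyclin G1, which recruits the phosphatase PP2A to Mdm2 and thereby tempers p53. It stood at 5.34, 4.87 and 5.14 FPKM in Dnmt3b+/+ embryos, at 14.0, 17.5 and 17.9 FPKM in those labelled Dnmt3b-/- and at 5.68, 6.48 and 5.16 FPKM in Dnmt3b CI/CI. The lowest Dnmt3b-/- embryo was above all of the other 6 embryos. With a log2 fold change of 1.66 ± 0.11 against Dnmt3b+/+ and a ratio of means of 3.22, it was called, and its upstream p53 site is the one printed in capitals in its promoter.

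Trp53inp1 (chr4:11156431-11174379, + strand), whose product binds p53 kinases in nuclear bodies and takes part in autophagy, was at 3.91, 4.07 and 3.82 FPKM in Dnmt3b+/+, 6.44, 6.67 and 7.24 FPKM in embryos with the Dnmt3b-/- label and 4.23, 3.79 and 3.75 FPKM in Dnmt3b CI/CI. Dnmt3b-/- embryos did not overlap the rest. Its log2 fold change of 0.77 ± 0.07 stayed under 2-fold, so it was not called. Zmat3 (chr3:32334792-32366014, - strand), an RNA-binding zinc finger protein, was at 2.96, 3.10 and 2.68 FPKM, at 5.49, 5.56 and 5.64 FPKM and at 2.75, 2.93 and 2.71 FPKM in the same order of genotypes. Zmat3 varied least among the embryos labelled Dnmt3b-/-, with the highest 1.03 times the lowest. At 0.91 ± 0.07 on the log2 scale it was the member nearest below the fold threshold.

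Growth arrest targets followed. Cdkn1a (chr17:29090976-29100727, + strand) encodes p21, the inhibitor of cyclin-dependent kinases through which p53 arrests cells in G1. Dnmt3b+/+ embryos held 7.41, 8.20 and 9.26 FPKM, those labelled Dnmt3b-/- 19.5, 16.6 and 15.2 FPKM and Dnmt3b CI/CI embryos 9.24, 11.4 and 9.86 FPKM. The lowest value of the embryos labelled Dnmt3b-/- was above the highest of the other genotypes, and the Dnmt3b CI/CI embryos overlapped Dnmt3b+/+ only through 9.24 FPKM. At 1.04 ± 0.12 on the log2 scale Cdkn1a was the called member nearest the threshold. The call was lost without Dnmt3b+/+ replicate 1 or Dnmt3b-/- replicate 1, where fewer than 3 embryos stood in a group, and the lowest of these values was 0.94. Exons of a gene on the opposite strand overlap those of Cdkn1a, and whether the libraries were stranded is not given in the sources used here.

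Btg2 (chr1:134075170-134079120, - strand), an antiproliferative protein that promotes mRNA deadenylation, was the member whose embryos overlapped. It stood at 9.81, 10.6 and 8.82 FPKM in Dnmt3b+/+, at 13.8, 10.9 and 10.3 FPKM in embryos with the Dnmt3b-/- label and at 8.76, 9.74 and 10.1 FPKM in Dnmt3b CI/CI. Dnmt3b-/- replicate 1 alone was well above the Dnmt3b+/+ range. The log2 fold change of 0.25 ± 0.12 dropped to 0.13 without that embryo. Plk2 (chr13:110395046-110400844, + strand), a polo-like kinase induced by p53 and by serum, was at 12.1, 12.6 and 12.6 FPKM, at 16.3, 13.4 and 13.4 FPKM and at 14.0, 13.6 and 13.0 FPKM. Here too replicate 1 was the high embryo of its group, and without it the log2 fold change of 0.20 ± 0.08 became 0.11. Btg2 and Plk2 respond to growth factors as well as to p53, as immediate early genes do.

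Targets that restrain growth signals or guard the cell were examined last. Sesn2 (chr4:132492032-132510501, - strand), a sestrin that senses leucine, inhibits mTORC1 and supports antioxidant defence, was at 3.42, 3.24 and 3.18 FPKM in Dnmt3b+/+ embryos, 8.87, 9.70 and 9.09 FPKM in those labelled Dnmt3b-/- and 3.17, 3.24 and 3.59 FPKM in Dnmt3b CI/CI. The embryos labelled Dnmt3b-/- stood well above the other 6, whose genotypes overlapped. Its log2 fold change was 1.46 ± 0.07, a ratio of means of 2.81.

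Phlda3 (chr1:135766119-135769136, + strand), a pleckstrin homology protein that competes with Akt for membrane lipids, was at 9.27, 7.24 and 8.50 FPKM in Dnmt3b+/+, 22.2, 20.5 and 18.2 FPKM in embryos with the Dnmt3b-/- label and 9.19, 10.6 and 10.2 FPKM in Dnmt3b CI/CI. It was the most abundant member in the embryos labelled Dnmt3b-/-, with a log2 fold change of 1.27 ± 0.11.

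Eda2r (chrX:97333840-97377216, - strand), a TNF family receptor for the A2 form of ectodysplasin, was the rarest member and had the largest ratio of means between these genotypes. Dnmt3b+/+ embryos held 0.167, 0.143 and 0.138 FPKM from 44, 42 and 32 reads. In those labelled Dnmt3b-/- it reached 1.37, 1.65 and 1.77 FPKM from 321, 412 and 422 reads, and in Dnmt3b CI/CI it was at 0.231, 0.224 and 0.137 FPKM from 61, 57 and 31 reads. The ratio of means was 10.6 against Dnmt3b+/+, and its log2 fold change ranked 36 from the top among the tested genes. On the log2 scale the difference was 2.76 ± 0.16, but a low gene depends on the pseudocount, and it was 3.32 with 0.01 FPKM and 1.17 with 1 FPKM. It was called under each of these, but with 1 FPKM its log2 fold change was below those of Ccng1, at 1.51, Sesn2, at 1.26, and Phlda3, at 1.19.

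**Figure D2:**
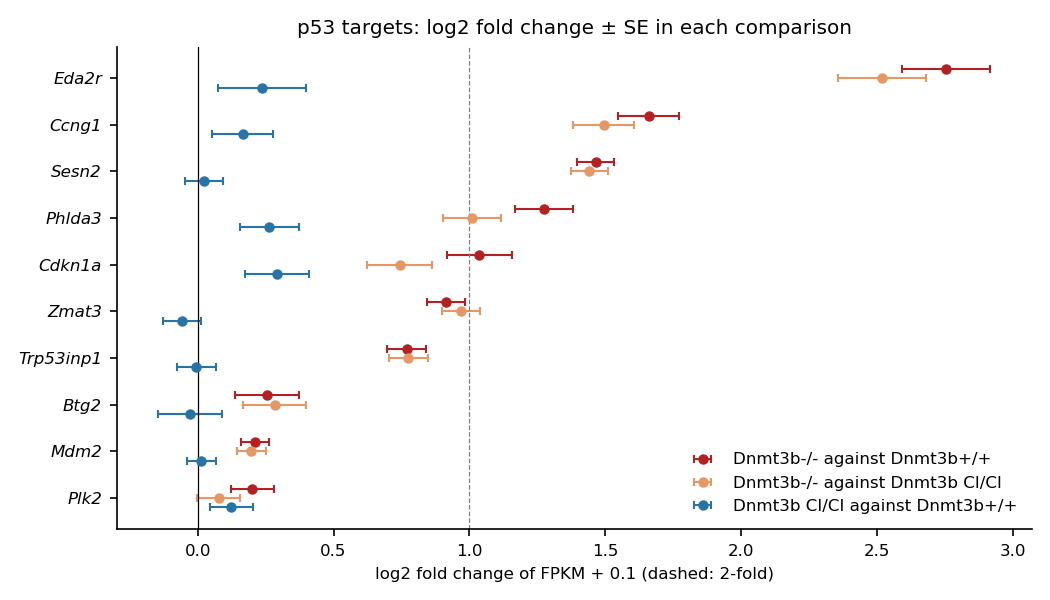
Log2 fold change (horizontal axis, FPKM + 0.1, with SE bars from the fit over 9 embryos) of each member in the 3 comparisons, ordered by Dnmt3b-/- against Dnmt3b+/+. The dashed line marks 2-fold, passed by Eda2r, Ccng1, Sesn2, Phlda3 and Cdkn1a in that comparison, and all values of Dnmt3b CI/CI against Dnmt3b+/+ lie between -0.06 and 0.29.

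The catalytic mutant was compared next. In Dnmt3b CI/CI against Dnmt3b+/+ embryos limma called 0 of the 10 members, against 0.129% of all tested genes called higher. Over all 19397 genes 1019, or 5.25%, had an unadjusted limma p under 0.05, as did 2 of the 10 members. Since the members were chosen with their values known, nothing is read from that count. The members' median log2 fold change was 0.07, and that of all genes 0.02. Cdkn1a was at 0.29 ± 0.12, Phlda3 at 0.26 ± 0.11 and Eda2r at 0.24 ± 0.16, and their order depended on single embryos. Phlda3 was at 0.17 without Dnmt3b+/+ replicate 2. Eda2r was at 0.39 without Dnmt3b CI/CI replicate 3, at 0.15 without Dnmt3b CI/CI replicate 1 and at 0.06 with a pseudocount of 1 FPKM. For Plk2 every Dnmt3b CI/CI embryo lay above every Dnmt3b+/+ embryo, as for 7.53% of all genes, with a log2 fold change of 0.12 ± 0.08. The other 9 members overlapped between these genotypes. Not being called does not show that the genotypes have equal levels.

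Set against Dnmt3b CI/CI embryos, those labelled Dnmt3b-/- had 4 members called higher, where 1.1% of all genes were. The 4 were Eda2r at 2.52 ± 0.16, Ccng1 at 1.49 ± 0.11, Sesn2 at 1.44 ± 0.07 and Phlda3 at 1.01 ± 0.11 on the log2 scale. Cdkn1a, at 0.74 ± 0.12, and Zmat3, at 0.97 ± 0.07, did not reach 2-fold. Every embryo labelled Dnmt3b-/- was above every Dnmt3b CI/CI embryo for all members but Plk2, compared with 16.7% of all genes. This comparison and the one with Dnmt3b+/+ share the embryos labelled Dnmt3b-/-, so they are not independent.

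**Figure D3:**
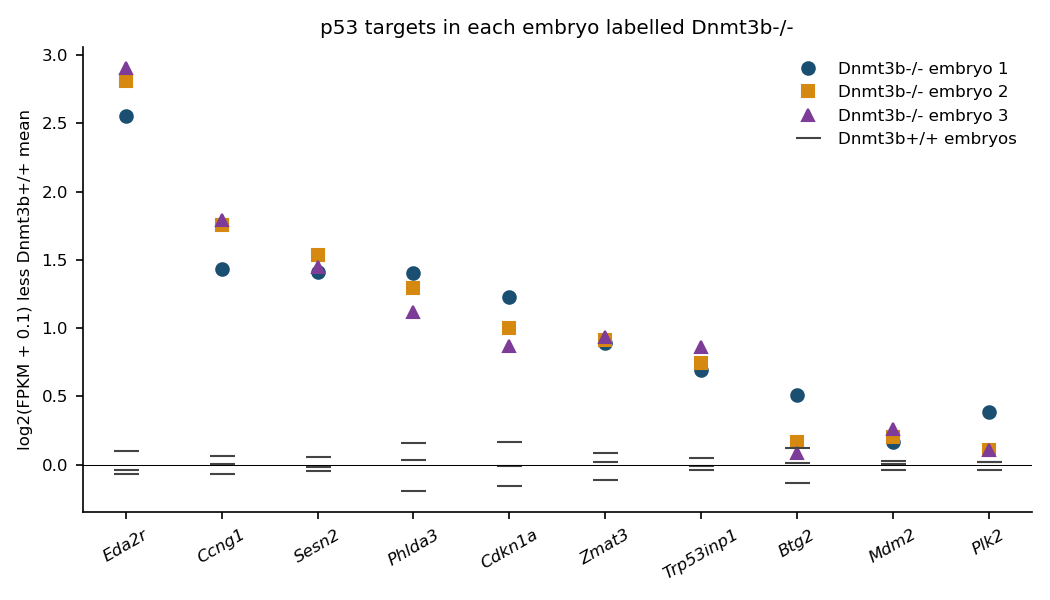
Log2(FPKM + 0.1) of each member in each embryo labelled Dnmt3b-/- (symbols), less the mean of the 3 Dnmt3b+/+ embryos, whose own values are the short bars. Embryo 1 is the highest for Phlda3, Cdkn1a, Btg2 and Plk2 and the lowest for the other 6 members.

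Within the group labelled Dnmt3b-/- the members did not rank the embryos alike. Replicate 1 was the lowest embryo for Eda2r, Ccng1, Sesn2, Zmat3, Trp53inp1 and Mdm2 and the highest for Cdkn1a, Phlda3, Btg2 and Plk2. The ratio of the highest to the lowest embryo reached 1.34 for Btg2, 1.29 for Eda2r and 1.28 for both Cdkn1a and Ccng1. It was only 1.03 for Zmat3, 1.07 for Mdm2, 1.09 for Sesn2 and 1.125 for Trp53inp1, so their ranks rest on small differences. Replicate 1 also differed in other genes. The embryonic globin Hbb-bh1 was at 113, 501 and 265 FPKM in replicates 1 to 3, and the cartilage matrix gene Matn1 at 0.251, 0.129 and 0.0863 FPKM. With 3 embryos this split is a description, and its relation to these other genes was not tested.

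Levels per length ranked the members in Dnmt3b+/+ embryos from Plk2 at 12.4 ± 0.29 FPKM (SD, n = 3) through Btg2 at 9.73 ± 0.87, Phlda3 at 8.34 ± 1.03, Cdkn1a at 8.29 ± 0.93, Mdm2 at 6.18 ± 0.15, Ccng1 at 5.12 ± 0.24, Trp53inp1 at 3.93 ± 0.13, Sesn2 at 3.28 ± 0.12 and Zmat3 at 2.91 ± 0.21 to Eda2r at 0.150 ± 0.015 FPKM. Embryos overlapped between the neighbours Btg2 and Phlda3 and between Phlda3 and Cdkn1a, and not between the other neighbours. In embryos labelled Dnmt3b-/- the order began with Phlda3 at 20.3 ± 2.0, Cdkn1a at 17.1 ± 2.2 and Ccng1 at 16.5 ± 2.2 FPKM, ahead of Plk2 at 14.3 ± 1.7 FPKM. Eda2r was last in each. The place of Cdkn1a in these orders is uncertain. Its FPKM rests on a length of 2223 bases, found from the values, where its exons span 3553 bases in GENCODE vM21, and at that length its mean would be 5.19 FPKM in Dnmt3b+/+ and 10.7 FPKM in embryos labelled Dnmt3b-/-. Ratios between embryos do not depend on the length.

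Close relatives of the members were then examined, since they share sequence and much of their function with the members. Of 22 tested paralogs limma called 0 in Dnmt3b-/- against Dnmt3b+/+, and 8 had an unadjusted p under 0.05, as did 40% of all genes. Without the fold threshold 1 passed as higher and 4 as lower, against 9.41% and 16.4% of all genes. The sestrins went apart. Sesn1, itself a p53 target in other settings, fell from 4.84, 4.78 and 4.67 FPKM to 3.13, 2.97 and 3.26 FPKM, a log2 fold change of -0.60 ± 0.07 (limma, adjusted p = 0.00126), and Sesn3, a target of FoxO factors, changed by -0.40 ± 0.08 (adjusted p = 0.0081). Neither reached 2-fold, and both were below all Dnmt3b+/+ embryos, while Sesn2 was above.

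Cyclin G2 (Ccng2) was lower by the same measure, at -0.31 ± 0.08 (limma, adjusted p = 0.0217), whereas its relative Ccng1 was higher. The partner of Mdm2, Mdm4, which also inhibits p53, was at 6.98, 6.04 and 6.05 FPKM in Dnmt3b+/+ and at 5.52, 5.46 and 5.96 FPKM in embryos labelled Dnmt3b-/-, a difference of -0.17 ± 0.07 that did not pass (adjusted p = 0.125). For the CDK inhibitors next to Cdkn1a, Cdkn1b had a log2 fold change of -0.05 ± 0.05 (adjusted p = 0.448) and Cdkn1c one of -0.21 ± 0.23 (adjusted p = 0.525). Phlda1, at -0.27 ± 0.19, Phlda2, at -0.56 ± 0.23, and Trp53inp2, at -0.42 ± 0.22, did not pass either. Of the polo-like kinases, the mitotic kinase Plk1 rose by 0.72 ± 0.13 (adjusted p = 0.00668) and the low Plk5 fell, by -0.70 ± 0.20 (adjusted p = 0.0367), while Plk3 at 0.58 ± 0.20 and Plk4 at 0.28 ± 0.15 did not pass. Zmat1, Zmat4, Zmat5, Edar, Tnfrsf19, Btg1, Btg3, Tob1 and Tob2 had log2 fold changes from -0.15 to 0.13 and adjusted p of 0.253 or more.

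**Figure D4:**
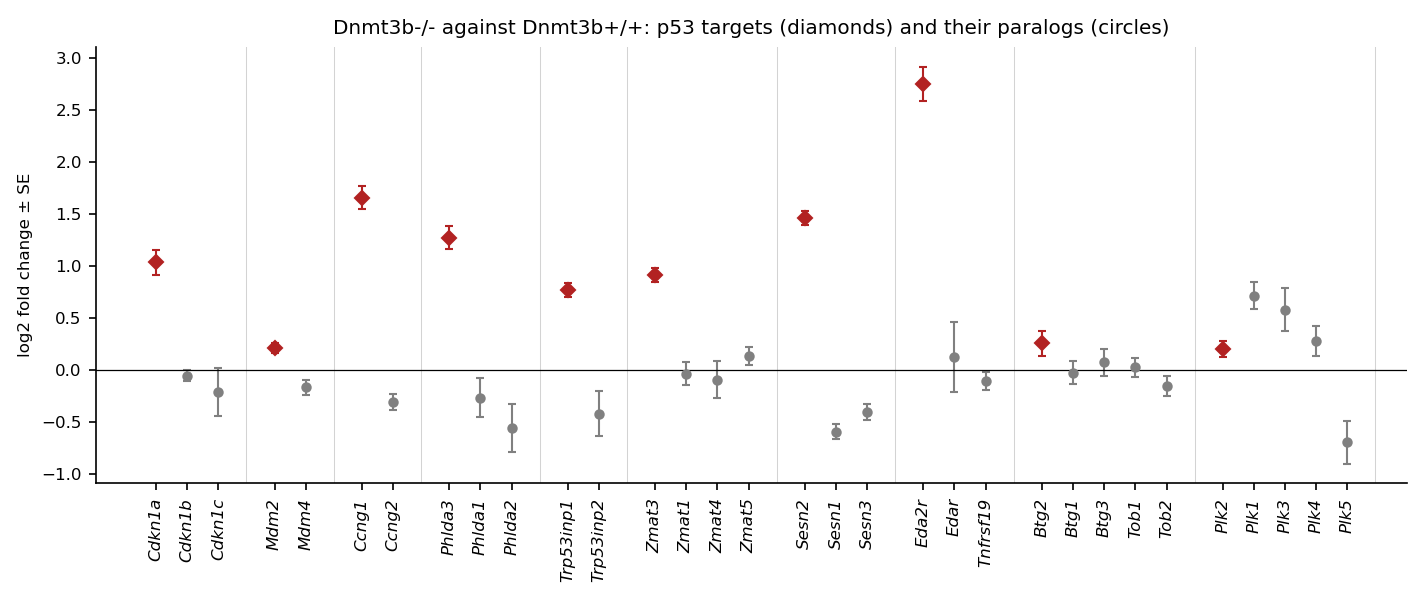
Log2 fold change with SE (vertical axis) in embryos labelled Dnmt3b-/- against Dnmt3b+/+ for each member (red diamond) and its tested paralogs (grey circles), by family. All 10 diamonds are above 0, and Sesn1, Sesn3, Ccng2 and Plk5 lie below it with an adjusted p under 0.05.

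Upstream of the members, the gene for p53 itself was examined. Trp53 was at 16.8, 15.1 and 18.1 FPKM in Dnmt3b+/+, 18.1, 25.0 and 22.0 FPKM in embryos with the Dnmt3b-/- label and 17.0, 14.6 and 17.8 FPKM in Dnmt3b CI/CI. The lowest of the embryos labelled Dnmt3b-/- was level with the highest Dnmt3b+/+ embryo. Its log2 fold change of 0.37 ± 0.13 did not pass the test (limma, adjusted p = 0.0612), and p53 protein, whose stability is the usual point of control, was not measured by these libraries. The p53 family members Trp63 and Trp73 were near or under 1 FPKM throughout, with log2 fold changes of -0.20 ± 0.15 (adjusted p = 0.366) and -0.80 ± 0.34 (adjusted p = 0.114). Of 26 regulators of p53, 23 were tested and 0 called, with 13 at an unadjusted p under 0.05, next to 40% of all genes. Any fold allowed, 5 were higher and 4 lower, next to 9.41% and 16.4%. The largest fold among these that passed was that of Ppp1r13b (ASPP1), a p53 cofactor for death genes, at -0.78 ± 0.10 (adjusted p = 0.0017).

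Other p53 targets, 64 tested genes not among the members, gave 6 called higher and 1 called lower, beside 1.07% and 3.38% of all genes. Any fold allowed, 24 were higher and 6 lower, beside 9.41% and 16.4%, and the median log2 fold change was 0.25 against -0.07. The list was written from textbook roles but with earlier results of these embryos known. Among growth arrest and survival targets the 4 with the largest folds were Psrc1, a spindle protein, at 1.48 ± 0.11 (limma, adjusted p = 0.000187), Ptprv, a phosphatase linked to p53-dependent arrest, at 1.42 ± 0.15 (adjusted p = 0.000816), Dcxr, a xylulose reductase, at 1.20 ± 0.13 (adjusted p = 0.000938) and Cd82, a tetraspanin, which was lower at -1.37 ± 0.09 (adjusted p = 8.76e-05). Gtse1, which restrains p53 in G2, was also called at 1.08 ± 0.12 and is named outside the rule for naming genes, after its value was seen.

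Among 19 tested death targets of p53, Pmaip1 and Pidd1 were called higher and 0 were called lower, beside 1.07% and 3.38% of all genes. Any fold allowed, 8 were higher and 1 lower, beside 9.41% and 16.4%. Pmaip1 encodes Noxa, a BH3-only protein, and was at 0.889, 0.599 and 0.559 FPKM in Dnmt3b+/+, 3.34, 6.14 and 6.31 FPKM in embryos with the Dnmt3b-/- label and 0.859, 0.882 and 0.914 FPKM in Dnmt3b CI/CI. As for Eda2r and Ccng1, replicate 1 was the lowest of its group. Its log2 fold change was 2.75 ± 0.25 (limma, adjusted p = 0.000389). Pidd1, a scaffold for caspase-2, was at 1.02 ± 0.11 (adjusted p = 0.000778) and was not called without Dnmt3b+/+ replicate 2, at 0.90, nor without Dnmt3b-/- replicate 3, at 0.999. Bbc3 (Puma) and Bax, named after their values were seen, were at 0.71 ± 0.14 (adjusted p = 0.0089) and 0.51 ± 0.07 (adjusted p = 0.002), under 2-fold.

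Genes that p53 and p21 are known to lower through the DREAM complex were measured too. Of 37 G2/M and E2F cell cycle genes, limma called 0 at 2-fold in Dnmt3b-/- against Dnmt3b+/+. Any fold allowed, 29 were higher and 0 lower, next to 9.41% and 16.4% of all genes, and 33 had an unadjusted p under 0.05, next to 40%. The median log2 fold change was 0.53. Rrm2, a subunit of ribonucleotide reductase, was at 30.5, 19.3 and 26.5 FPKM in Dnmt3b+/+ and 37.5, 54.7 and 55.6 FPKM in the embryos labelled Dnmt3b-/-, a log2 fold change of 0.95 ± 0.19 (adjusted p = 0.00966). It passed 2-fold without Dnmt3b+/+ replicate 1, at 1.10, and without Dnmt3b-/- replicate 1, at 1.14. The checkpoint kinase Bub1 was at 0.78 ± 0.20 (adjusted p = 0.0252).

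Of 19 tested CDK inhibitors, G1 cyclins, their kinases and RB family genes, 0 were called by limma, 6 had an unadjusted p under 0.05, beside 40% of all genes, and 2 were higher and 2 lower at any fold, beside 9.41% and 16.4%. Cyclin D1 (Ccnd1) rose from 29.3, 26.9 and 26.5 FPKM to 46.5, 48.0 and 52.5 FPKM, by 0.83 ± 0.06 on the log2 scale (limma, adjusted p = 0.000181), and the INK4 inhibitor Cdkn2c fell, at -0.60 ± 0.13 (adjusted p = 0.015). Cdkn2a, whose product Arf inhibits Mdm2, was under the filter on low values.

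Immediate early genes were included because Btg2 and Plk2 respond to the same signals. Of 20 tested, 4 were called higher and 0 lower in embryos labelled Dnmt3b-/-, beside 1.07% and 3.38% of all genes. Any fold allowed, 8 were higher and 3 lower, beside 9.41% and 16.4%, and the median log2 fold change was 0.02. Fos stood at 0.324, 0.563 and 0.325 FPKM in Dnmt3b+/+ and at 3.25, 5.29 and 8.39 FPKM in the embryos labelled Dnmt3b-/-, a log2 fold change of 3.44 ± 0.32 (limma, adjusted p = 0.000428). Fosb was at 3.37 ± 0.64 (adjusted p = 0.0081), Cyr61 at 1.36 ± 0.13 (adjusted p = 0.000461) and Ier2 at 1.03 ± 0.10 (adjusted p = 0.000508). The call of Ier2 was lost without Dnmt3b+/+ replicate 2, at 0.96, and without Dnmt3b-/- replicate 2, at 0.99.

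Sesn2 is also a target of the stress factor ATF4, and 24 genes were tested from a list of ATF4 targets and other stress genes, oxidative stress genes such as Nqo1 and Hmox1 among them. Limma called 0, 11 had an unadjusted p under 0.05, where 40% of all genes did, and 4 were higher and 2 lower at any fold, where 9.41% and 16.4% were. Trib3, a pseudokinase induced by ATF4, was at 0.70 ± 0.22 (adjusted p = 0.0474) and Cebpb at -0.62 ± 0.24 (adjusted p = 0.0867). Among 5 genes of ectodysplasin signalling around Eda2r, limma called 0, beside 1.07% of all genes called higher and 3.38% lower. An unadjusted p under 0.05 was seen in 1, where 40% of all genes had one. Any fold allowed, 0 were higher and 1 lower, beside 9.41% and 16.4%. The ligand gene Eda fell, at -0.45 ± 0.12 (adjusted p = 0.0291), and the adaptor Edaradd was at -0.13 ± 0.14 (adjusted p = 0.504).

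**Figure D5:**
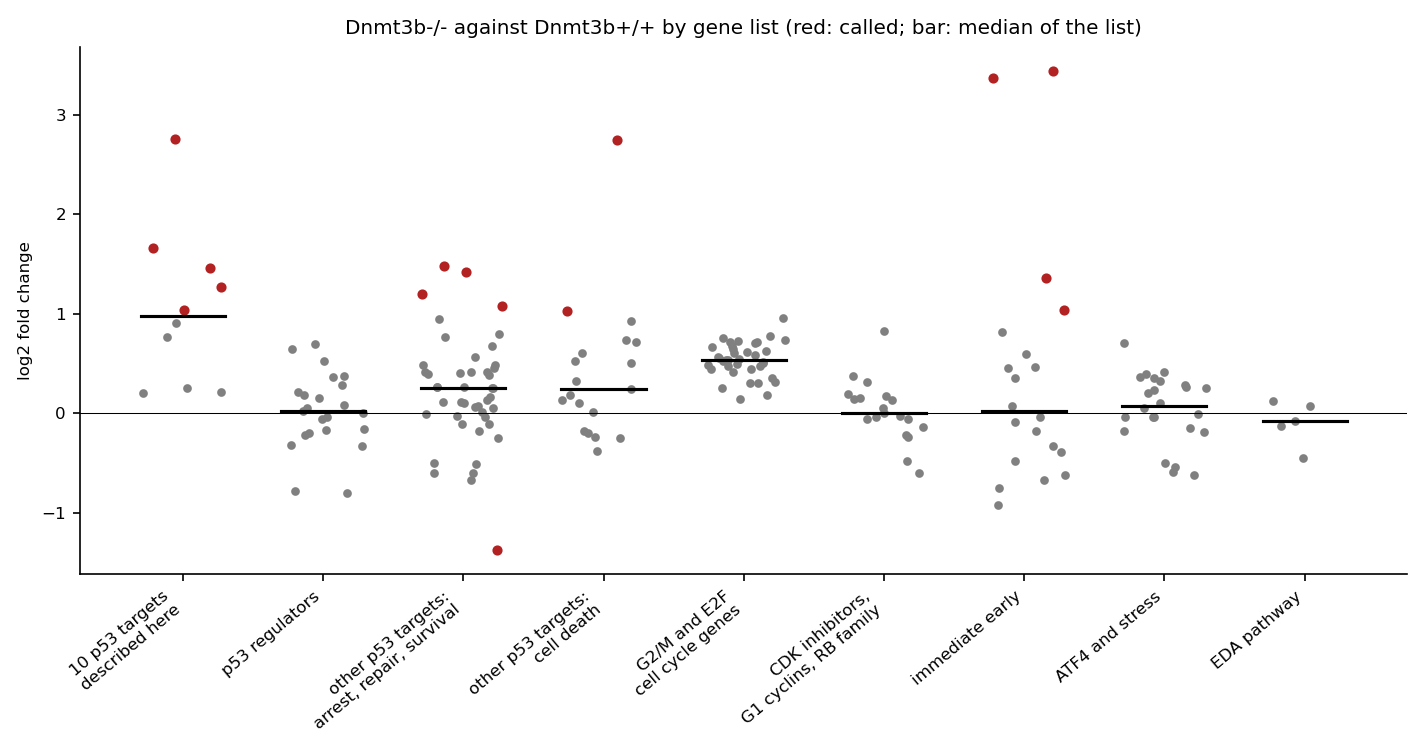
Log2 fold change (vertical axis) in embryos labelled Dnmt3b-/- against Dnmt3b+/+ for every tested gene of each list (points; red where called at 2-fold and an adjusted p under 0.05), with the median of the list as a bar. The medians of the lists plotted run from 0.97 for the 10 members and 0.53 for the G2/M and E2F genes to -0.08 for ectodysplasin signalling.

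In Dnmt3b CI/CI against Dnmt3b+/+ embryos 0 genes were called by limma in any of these lists. Of the 64 other p53 targets 1 had an unadjusted p under 0.05, of the 23 regulators 4, and of the 37 G2/M and E2F genes 0, next to 5.25% of all genes. Psrc1 differed by -0.02 ± 0.11, Pmaip1 by 0.36 ± 0.25 and Fos by 0.28 ± 0.32 on the log2 scale, with adjusted p of 0.949 or more.

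Across the 9 embryos, 5 genes of 12787 with a mean of at least 1 FPKM followed the median of the members most closely, with a root mean square log2 difference from 0.088 to 0.130. They were Aen, a nuclease gene known as a p53 target, Pomc, the precursor of several peptide hormones, Rnaseh2c, a subunit of ribonuclease H2, Ccnd1 and Ier2. Since they were chosen for their step between the genotypes, their values here are a description. The log2 fold change of Pomc in Dnmt3b-/- against Dnmt3b+/+ was 1.04 ± 0.10. Aen was at 4.20, 3.81 and 3.79 FPKM, 7.37, 8.19 and 7.12 FPKM and 4.04, 4.40 and 4.32 FPKM in Dnmt3b+/+, embryos labelled Dnmt3b-/- and Dnmt3b CI/CI. Likeness here means a similar step between genotypes over 9 embryos.

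Cell type markers moved in the same embryos. Summed over 6 cartilage genes, FPKM ranged from 140.2 to 209.9 in Dnmt3b+/+, 79.5 to 126.4 in embryos labelled Dnmt3b-/- and 200.9 to 213 in Dnmt3b CI/CI. In Dnmt3b-/- against Dnmt3b+/+ all 6 were lower at any fold and 3 were called lower, beside 16.4% and 3.38% of all genes. Over 6 erythroid genes the sums were 2239 to 2853, 2211 to 6937 and 2080 to 2840 FPKM. Their log2 fold changes in Dnmt3b-/- against Dnmt3b+/+ ran from -0.46 to 3.01, so the genes did not shift together. Of these 2 were called higher and 0 lower, beside 1.07% and 3.38% of all genes. Over 6 muscle genes the sums were 90.1 to 190.4, 77.9 to 103.5 and 156.3 to 207.8 FPKM, and over 6 macrophage genes 16.0 to 18.7, 11.7 to 15.5 and 20.2 to 21.1 FPKM. Endothelial genes gave 28.7 to 32.5, 28.1 to 31.1 and 34.2 to 35.8 FPKM. Neuronal sums overlapped, at 215.2 to 394.1, 175.4 to 311.9 and 227.9 to 272.7 FPKM. Limb and surface ectoderm gave 47.7 to 53.6, 35.4 to 43.8 and 40.2 to 55.6 FPKM, but the median log2 fold change over its 8 genes was 0.17. Of these genes 1 was called higher and 0 lower, beside 1.07% and 3.38% of all genes. Any fold allowed, 1 was higher and 2 were lower, beside 9.41% and 16.4%. The keratins Krt5 and Krt14 made up most of the sum in Dnmt3b+/+. Fetal liver genes summed to 225.9, 35.8 and 124.5 FPKM in Dnmt3b+/+, to 43.9 to 90.6 FPKM in embryos labelled Dnmt3b-/- and to 134.1 to 162.3 FPKM in Dnmt3b CI/CI. The embryos labelled Dnmt3b-/- were thus below all others but Dnmt3b+/+ replicate 2, where Alb was at 0.103 and Afp at 0.119 FPKM and Ttr, which other tissues express too, made up nearly all of the sum. All 6 cartilage genes were lowest in Dnmt3b-/- replicate 3, among them Matn1 at 0.0863 and Acan at 0.0892 FPKM. The part of these shifts in the members' values was not tested.

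Over all genes, 208 were called higher and 655 lower in embryos labelled Dnmt3b-/- against Dnmt3b+/+, so that 24.1% of the calls were higher. Quantile normalization gave 272 higher and 392 lower, or 41%, and against Dnmt3b CI/CI the share went from 20.3% to 40%. The members' median log2 fold change against Dnmt3b+/+ was 0.97 as deposited, 0.99 after median-of-ratios scaling and 1.01 after quantile normalization, and in that comparison every member's fold was positive under each scaling.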

How the data were processed

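Total RNA of 9 whole embryos was sequenced on an Illumina NovaSeq as paired-end reads, 1 library per embryo. The authors aligned reads with STAR to mm10 (GRCm38), filtered on mapping quality, quantified genes in SeqMonk and deposited FPKM values on the linear scale. The annotation release is not given in the sources used here. Genes that drew no reads hold a small value equal to 0.9 reads, and reads behind each member were worked back from FPKM, cover counting error only and entered no test. Of 34245 rows, 1 had no gene name. Genotypes and embryo numbers came from the labels. According to an earlier report on these data, a supplementary table of the study numbers the Dnmt3b+/+ and Dnmt3b CI/CI embryos in another order under the same genotypes. A replicate number here is therefore only a name. The 9 samples of bisulfite sequencing were not analysed here.

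The 19397 genes that reached 0.1 FPKM in 3 or more of the 9 embryos were fitted in R 4.3.3 by limma 3.58.1, on log2(FPKM + 0.1) and with a variance trend, and with Benjamini-Hochberg adjustment over all of them. The separate embryos are the replicates. No count test was run, since FPKM are not counts. The code was tested on simulated data. Tables and site searches used Python 3.11.15.

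Members and lists were chosen with earlier results of these data known. Named genes are the members, Trp53, Mdm4, Trp63, Trp73, all tested paralogs, Dnmt3b, the 5 genes most alike, and from each other list up to 4 called genes with the largest fold in Dnmt3b-/- against Dnmt3b+/+, or up to 2 where none was called. Cell type markers, Gtse1, Bbc3, Bax and Cdkn2a were also named, outside this rule. Cop1 and Setd8 were not matched by symbol, and Junb, on several rows, was left out of its list. Alternatives were another pseudocount, filter, scaling, model, fold threshold, a block for the embryo number, and each embryo left out.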

Additional observations from a re-analysis of the deposited data

How the results depend on the processing

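In Dnmt3b-/- against Dnmt3b+/+, 5 members were called as reported and 4 to 5 when single embryos were dropped. Against Dnmt3b CI/CI 4 were called, and 3 to 5 with an embryo left out, where Phlda3 was lost without Dnmt3b-/- replicate 1 or Dnmt3b CI/CI replicate 1 and Zmat3 was added without Dnmt3b CI/CI replicate 2. Dropping the fold threshold gave 8 members in each of these comparisons. In Dnmt3b CI/CI against Dnmt3b+/+ 0 members were called under every alternative run. A pseudocount of 1 FPKM, which lowers folds by construction, ended the call of Cdkn1a, and in the comparison with Dnmt3b CI/CI that of Phlda3. It gave 3 calls among other p53 targets where 7 were reported, and over all genes 193 calls in the first comparison, 242 in the second and 8 for the catalytic mutant against Dnmt3b+/+, where 863, 1051 and 25 were reported. Quantile normalization kept the count of 4 against Dnmt3b CI/CI but lost Phlda3 and added Zmat3.

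A filter of at least 1 FPKM gave 484 and 597 calls over all genes in the comparisons of Dnmt3b-/-, since fewer genes were tested, and no fold threshold gave 5001 and 5407. The latter also gave 30 other p53 targets, 9 regulators and 29 cell cycle genes. Leaving out each embryo gave 587 to 1400, 722 to 1579 and 18 to 26 calls over all genes in the same order, 6 to 8 other p53 targets, 0 regulators and 0 to 1 cell cycle genes. The highest counts over all genes came without Dnmt3b-/- replicate 1, and the cause was not tested. The numbers of the embryos did not pair them, with a mean correlation of -0.0865 for the same number and 0.0478 for different numbers. The replicate block gave 738, 926 and 17 calls over all genes, with 5, 4 and 0 members called as without it. Folds of single members kept within the spread between embryos in 495 of 510 alternatives, and no called fold of a named gene changed sign. For the other named genes, 19 alternatives ended a call and 44 made one. These include the alternative without a fold threshold, which can only add calls and was left out of the 510. With 32 to 44 reads per library, Eda2r in Dnmt3b+/+ was the member that depth limited most.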
